A study of Mus musculus with 21 samples.

Results

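Insulin-like growth factor (IGF) signalling was followed through 10 genes in 3 mouse lines, each with the long noncoding RNA Esrp2-as lowered or raised. The 10 genes are the ligand Igf1, the receptors Igf1r and Insr, the adaptor Irs1 and the binding proteins Igfbp2, Igfbp3, Igfbp4, Igfbp5, Igfbp6 and Igfbp7. They were chosen by symbol, as the rows of the gene count table whose Ensembl identifiers map to these names, and the rule uses no measured value. The symbols were listed with earlier results of these data known, so the choice was not blind to them. All 10 were found among the 48440 genes of the table, and 9 were among the 21237 genes with enough counts to be tested. Igfbp2 was the member that was not tested.

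IGF1 is a secreted growth factor that binds the receptor tyrosine kinase encoded by Igf1r, and the related insulin receptor is encoded by Insr. Both receptors phosphorylate insulin receptor substrates such as the product of Irs1, which recruit phosphatidylinositol 3-kinase and so activate AKT and mTOR. The IGF-binding proteins are secreted carriers that hold IGFs away from the receptors or deliver them to the cell surface, and proteases such as pappalysins release the ligand by cutting them. IGFBP7 binds IGFs weakly and binds insulin as well. In the mammary gland, IGF1 comes mainly from stromal cells and acts on the epithelium.

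The tumour lines, M6 and M27H4, were derived from the mammary C3(1)SV40 TAg mouse model, in which the C3(1) promoter drives SV40 T antigen. The remaining line, 3T3-L1, is a preadipocyte line. All lines were grown in DMEM with 10% FCS. In M6, Esrp2-as was knocked down with LNA antisense gapmers, short modified oligonucleotides that direct cleavage of their target RNA, in 2 replicates against 2 controls. It was overexpressed in M27H4 (3 overexpression and 3 control replicates) and in 3T3-L1 (2 of each). The labels call every control an empty vector control, also in M6, and do not say whether the transfected cells were clones. Each cell type is represented by the named line alone, so a difference between lines is a difference between these lines only. Nothing in the labels says that the replicates were grown as separate cultures beyond calling them biological, so p-values measure only the spread between these samples, which may be technical.

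The 14 replicates held 34892461 to 328493417 counts. Esrp2-as stood at 2.96 and 2.42 CPM (counts scaled to a common effective library size) in M6 controls and at 0.527 and 0.851 CPM in the knockdown. It stood at 0.731 to 1.25 CPM in M27H4 controls against 15.9 to 65.9 CPM after overexpression, and at 0.25 and 0.355 CPM in 3T3-L1 controls against 35.5 and 45.8 CPM. Esrp2-as overlaps Esrp2 on the other strand and the strand setting of the counting is not given in the sources used here, so its values are uncertain. Epithelial markers (12 genes) summed to 4840 to 7280 CPM in M6, 155 to 304 CPM in M27H4 and 30.2 to 38.3 CPM in 3T3-L1. Fibroblast markers (12 genes) summed to 647 to 1190, 2740 to 4460 and 7960 to 9790 CPM in the same order. In M27H4 the epithelial adhesion gene Epcam stood at 0.0488 to 8.86 CPM, lowest in the first replicate of each group, while Cdh1, another epithelial adhesion gene, stood at 80.4 to 168 CPM. The fibroblast gene Pdgfra stood there at 673 to 929 CPM and the collagen gene Col1a1 at 0.584 to 7.74 CPM. Adipocyte markers (10 genes) summed to 5.55 to 9.23 CPM in M6, 141 to 285 CPM in M27H4 and 97.2 to 146 CPM in 3T3-L1. In M27H4 most of that sum was Lpl (111 to 248 CPM) and Cebpa (14.9 to 33.95 CPM). Pparg stood there at 0.943 to 2.05 CPM, and Adipoq, Lep, Plin1 and Cfd at or below 0.0556 CPM. In 3T3-L1 most of that sum was Lpl (72.9 to 119 CPM) and Pparg (20.2 to 21.3 CPM), while Adipoq, Lep, Plin1 and Cfd stayed at or below 0.0410 CPM.

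Of the 5 run codes at the end of the deposited column names, 1 held M6 alone among the labelled samples, 1 held M27H4 alone, and 3 held all 3 lines. Genes at trace level differed between these columns. Igf1 had 0 counts in all 4 M6 columns of the M6-only code (of 233162050 counts) and 15 to 33 counts in each of the 3 M6 columns of the shared codes. Igfbp5 had 0 counts in both M27H4 columns of the M27H4-only code (of 95362923 counts) and 6 to 37 counts in each of the 6 M27H4 columns of the shared codes. The M6 columns of the shared codes also carry other library codes in their names than the M6-only columns. The M27H4-only code held the first replicate of each group alone. Run code and library thus cannot be told apart here, and the source of these trace counts was not tested. They were far below the levels in the lines that express the genes. Beside the fitted values, folds over a floor are given for Igf1 over M6 and for Igfbp5 over M27H4, where single-line code columns had 0 counts. They hold against those columns alone and leave out the columns with trace counts, so they do not bound the difference between lines. The other folds against low levels are fitted values and not bounds either.

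**Figure D1:**
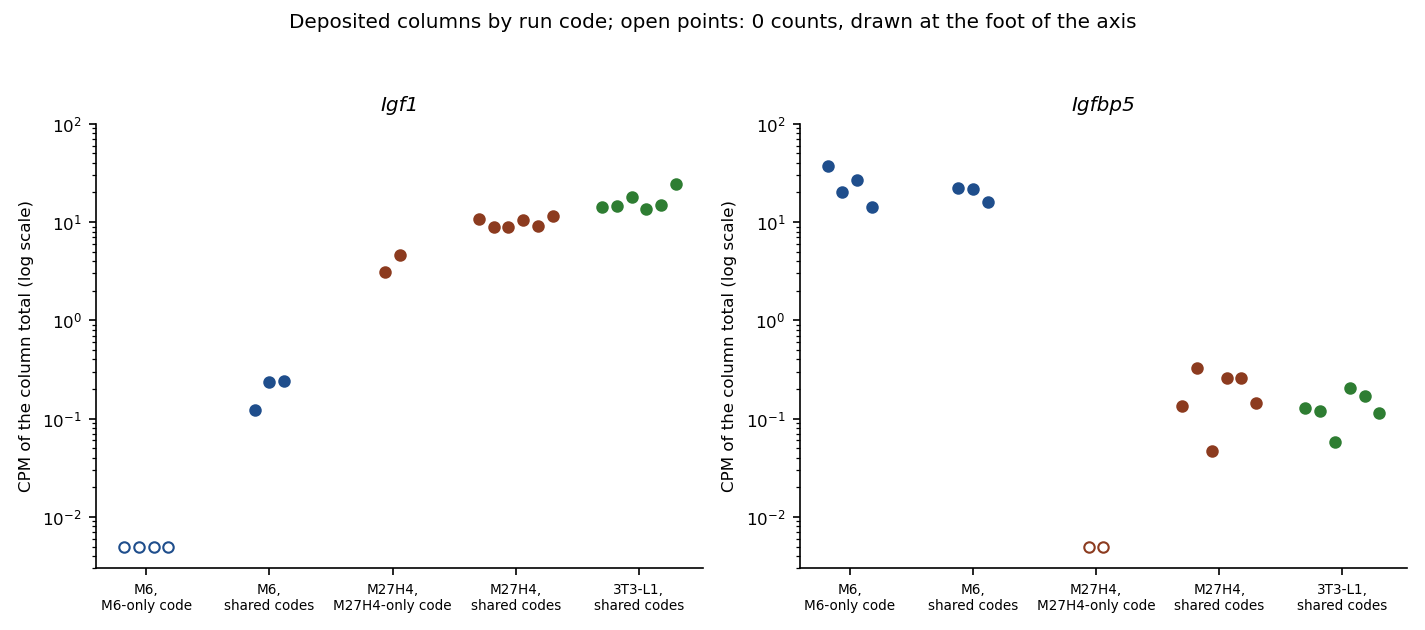
Level of Igf1 (left) and Igfbp5 (right) in each deposited column, as CPM of the column total on a log axis, by line and by whether the run code of the column held 1 labelled line or all 3. Open points are columns with 0 counts, drawn at the foot of the axis. Igf1 was at 0 in the M6-only code and Igfbp5 at 0 in the M27H4-only code.

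The stretches before the start sites of 3 binding protein genes are shown first, as examples of 3 line patterns among the binding proteins: Igfbp4 low in M6, Igfbp5 high in M6 and Igfbp6 high in 3T3-L1. They are RefSeq promoter entries on GRCm38.p6, written 5′ to 3′ on the strand of the gene, with capitals marking each CG and each TATAAA or its reverse complement TTTATA. They cover chr11:99040994-99041243 (plus strand) for Igfbp4, chr1:72874885-72875115 (minus strand) for Igfbp5 and chr15:102143936-102144185 (plus strand) for Igfbp6.
Igfbp4: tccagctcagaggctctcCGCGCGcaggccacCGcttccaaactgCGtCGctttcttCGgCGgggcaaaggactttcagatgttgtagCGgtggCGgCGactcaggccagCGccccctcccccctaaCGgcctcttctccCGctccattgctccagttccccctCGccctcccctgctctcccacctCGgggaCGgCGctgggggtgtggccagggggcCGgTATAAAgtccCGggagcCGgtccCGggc
Igfbp5: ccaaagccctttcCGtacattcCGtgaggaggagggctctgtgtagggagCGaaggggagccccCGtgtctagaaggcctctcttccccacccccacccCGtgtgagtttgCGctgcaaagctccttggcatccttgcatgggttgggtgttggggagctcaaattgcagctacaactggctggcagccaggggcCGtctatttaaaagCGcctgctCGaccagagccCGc
Igfbp6: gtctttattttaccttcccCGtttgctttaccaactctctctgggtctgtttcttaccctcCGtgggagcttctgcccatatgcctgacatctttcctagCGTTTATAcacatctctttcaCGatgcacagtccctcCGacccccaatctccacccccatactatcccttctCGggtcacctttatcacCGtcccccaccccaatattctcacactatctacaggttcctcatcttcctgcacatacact

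RefSeq entries were found for 9 of the 10 genes, all but Insr, and Igfbp2 had a pair of them. In the 250 bases before the start, CG occurred 22 times for Igfbp4, 10 times for Igfbp5 and 7 times for Igfbp6. The median over 32851 promoters of the same length was 6, with quartiles of 2 and 16. The windows of 4 other members held more, with 42 for Igf1r, 32 for Igfbp3, 28 for Irs1 and 26 for Igfbp7. Igf1 had 5, in a window that lies inside the annotated gene, and Igfbp2 had 14 and 11. TATAAA was found on either strand for 2 members, Igfbp4 and Igfbp6, against 12.4% of all promoters. The Igfbp4 window lies before the first exon of the transcript Igfbp4-201, which starts at chr11:99041244. Another transcript, Igfbp4-204, starts further on at chr11:99047311 and held 49.8 to 72.2% of Igfbp4 transcript counts in M27H4. The CG and TATAAA counts are letters in a window, and no methylation was measured in these files.

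Among the controls, the lines differed in nearly every member. Igf1 and Igfbp4 were low in M6 and high in M27H4 and 3T3-L1, Igfbp5 was the reverse, Igfbp6 was high in 3T3-L1, and Irs1 and Igfbp7 were highest in M6 and lowest in M27H4. Of the 9 tested members, 7 were called between M27H4 and M6 at an adjusted p under 0.05 (4 higher, 3 lower in M27H4), against 30.2% of all genes tested (15.2% higher, 15.0% lower). Another 7 were called between 3T3-L1 and M6 (3 higher, 4 lower in 3T3-L1), against 39.4% (20.5% and 18.9%), and 6 between 3T3-L1 and M27H4 (4 higher, 2 lower in 3T3-L1), against 36.6% (18.9% and 17.8%). Control groups did not overlap for 8 of the 9 members in each of these comparisons, against 47.7%, 67.6% and 60.6% of all genes tested. These counts describe the members without setting them apart from other genes. The median size of the members' log2 fold change was 2.91, 1.97 and 1.09 in the 3 comparisons, against 0.633, 0.848 and 0.735 over all genes tested. The 3 line comparisons share their control groups, and their values are given side by side.

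**Figure D2:**
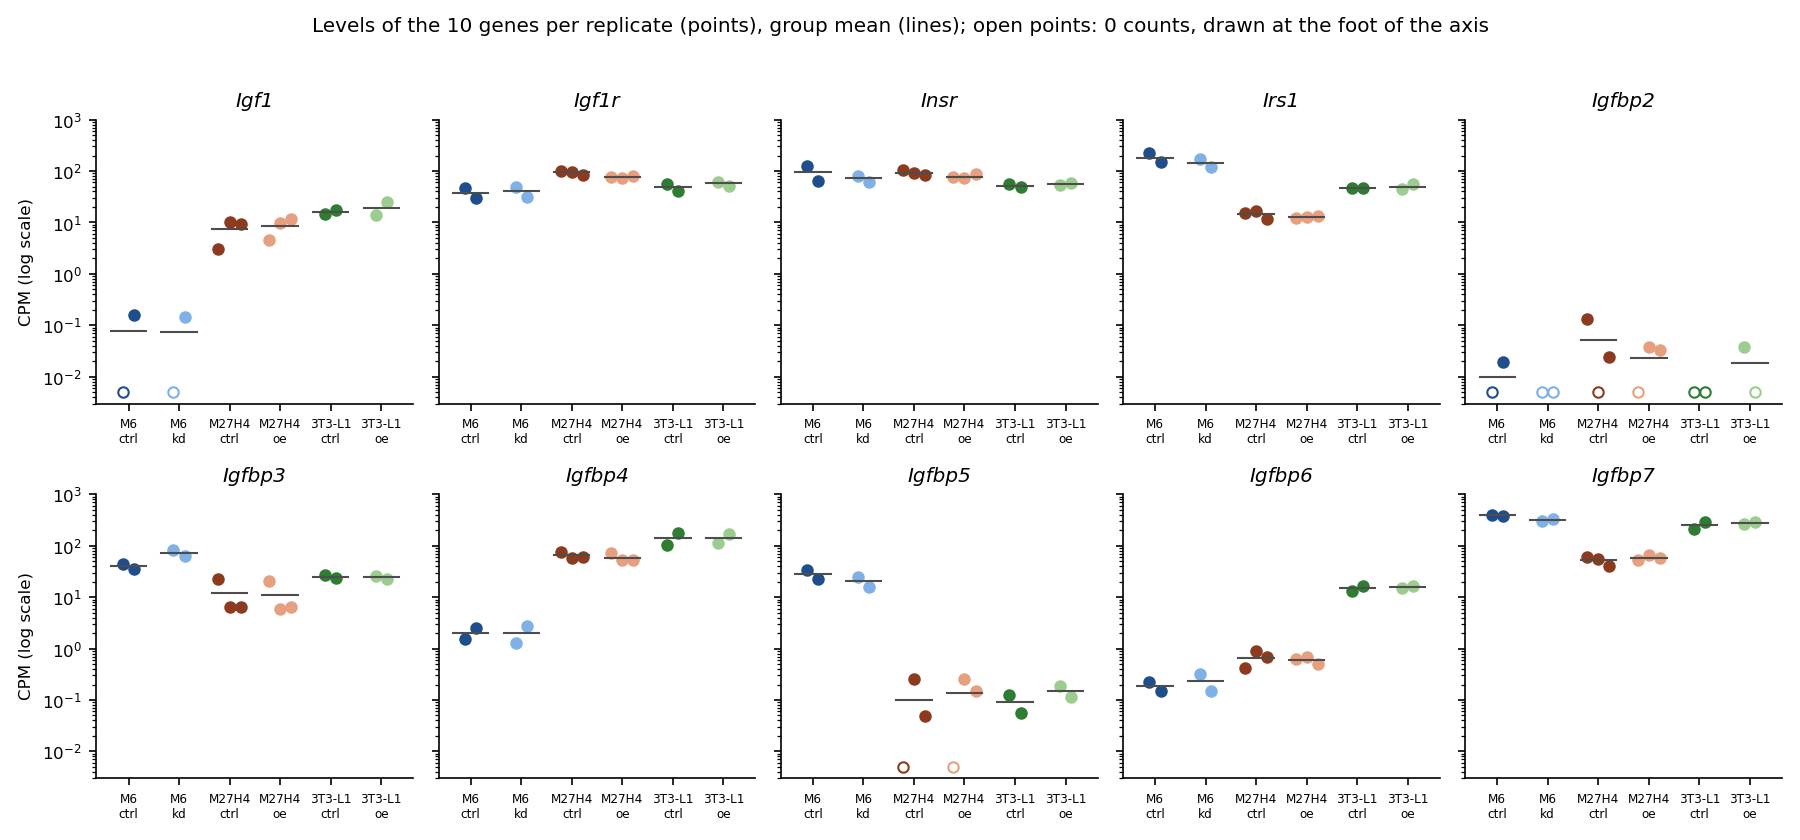
CPM of each of the 10 genes in each replicate (points) with the group mean (line), on a log axis, in control (ctrl), knockdown (kd) and overexpression (oe) groups. Open points are replicates with 0 counts. The lines differ in most panels, while the treated and control groups of a line lie side by side.

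Igf1 (chr10:87858265-87937042, plus strand) was the only IGF ligand among the members. It stood at 0 and 0.156 CPM in M6 controls and at 0 and 0.146 CPM in the M6 knockdown. In M27H4 it reached 3.02, 10.3 and 9.18 CPM in controls and 4.48, 9.65 and 11.7 CPM after overexpression, and in 3T3-L1 14.4 and 17.6 CPM against 14.1 and 24.7 CPM. Every M27H4 and 3T3-L1 replicate lay above every M6 replicate, and the first M27H4 replicate of each group was the lowest of that line. Igf1 was higher than in M6 by 6.10 ± 1.01 on the log2 scale in M27H4 (SE, edgeR adjusted p = 0.000752) and by 7.18 ± 1.07 in 3T3-L1 (edgeR adjusted p = 0.000274). Against the M6 control columns of the M6-only code, with a floor of 3 counts over them, the M27H4 control column of the M27H4-only code was at least 114-fold higher. The 3T3-L1 controls, whose columns all lie in shared codes, stood 584-fold above the same floor. This floor leaves out the M6 control columns of the shared codes, with 15 and 33 counts, so neither fold bounds the line difference. Over all columns the fitted fold was 68.4 (95% interval 14.7 to 319) in M27H4 and 145 (28.4 to 744) in 3T3-L1. Without M6 control replicate 2 the remaining M6 control was at 0, and the fitted differences of 12.98 and 14.07 are no bounds. The difference of 1.09 ± 0.70 between 3T3-L1 and M27H4 was not called (edgeR adjusted p = 0.26), although the control groups did not overlap. It was called when M6 and M27H4 were taken from the single-line codes alone (2.41, edgeR adjusted p = 0.015), which leave the first replicate as the M27H4 control. In these cultures of 1 line each, fewer cells that express a gene and less RNA per cell cannot be told apart.

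The receptors were present in all 3 lines. Igf1r (chr7:67952827-68233668, plus strand) stood at 46.2 and 29.4 CPM in M6 controls, at 101, 96 and 84.6 CPM in M27H4 controls and at 56.9 and 41.0 CPM in 3T3-L1 controls. The M27H4 controls lay above all others, and the M6 and 3T3-L1 ranges overlapped. Igf1r was 2.48-fold higher in M27H4 than in M6 (1.31 ± 0.24 on the log2 scale, edgeR adjusted p = 0.000964). In 3T3-L1 it was lower than in M27H4 (−0.94 ± 0.24, edgeR adjusted p = 0.00735), a call lost without 3T3-L1 control replicate 2 (−0.70, adjusted p = 0.146). That call was also lost in the single-line codes, which leave the first replicate as the M27H4 control (−1.03). Between 3T3-L1 and M6 the difference was 0.37 ± 0.25 (edgeR adjusted p = 0.274).

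Insr (chr8:3122061-3279617, minus strand) stood at 126 and 63.5 CPM in M6 controls, 105, 89.8 and 84.1 CPM in M27H4 controls and 55.7 and 48.6 CPM in 3T3-L1 controls. The M6 controls spanned the whole M27H4 range, and 3T3-L1 lay below both lines. The difference between M27H4 and M6 was −0.03 ± 0.24 (95% interval −0.56 to 0.50, edgeR adjusted p = 0.962). Insr was lower in 3T3-L1 than in M6 (−0.86 ± 0.27, edgeR adjusted p = 0.0214) and than in M27H4 (−0.84 ± 0.25, edgeR adjusted p = 0.0186). Both calls were lost in 6 of the alternative analyses. Without M6 control replicate 1 the difference from M6 was −0.28 (adjusted p = 0.439), and without 3T3-L1 control replicate 1 or 2 it was −1.02 and −0.81 (edgeR adjusted p = 0.0621 and 0.137). Likewise, without M27H4 control replicate 1 or either 3T3-L1 control the difference from M27H4 was no longer called (adjusted p = 0.0536, 0.0795 and 0.177). Per kilobase of exon, the ratio of Igf1r to Insr ran from 0.30 to 0.485 in M6, from 0.766 to 0.875 in M27H4 and from 0.691 to 0.969 in 3T3-L1, so Insr RNA exceeded Igf1r RNA in all 14 replicates and by the most in M6.

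Irs1 (chr1:82233101-82291416, minus strand), which couples both receptors to phosphatidylinositol 3-kinase, separated the 3 lines with no overlap. It stood at 219 and 147 CPM in M6 controls, at 15.0, 17.1 and 11.6 CPM in M27H4 controls and at 47.0 and 46.3 CPM in 3T3-L1 controls. M27H4 was 12.6-fold lower than M6 (−3.65 ± 0.23 on the log2 scale, edgeR adjusted p = 1.44e-07). The level in 3T3-L1 was between them, 3.92-fold lower than in M6 (edgeR adjusted p = 3.54e-05) and 3.21-fold higher than in M27H4 (edgeR adjusted p = 4.97e-05). These 3 calls held in every alternative run. Irs2, a related adaptor, was ordered differently, at 32.9 and 9.52 CPM in M6 controls, 3.06, 2.17 and 1.48 CPM in M27H4 controls and 39.3 and 25.5 CPM in 3T3-L1 controls. Per kilobase, the ratio of Irs1 to Irs2 was 4.61 to 10.9 in M6, 3.38 to 5.44 in M27H4 and 0.769 to 1.25 in 3T3-L1.

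Igfbp7 (chr5:77349240-77408041, minus strand) was the most abundant binding protein RNA in every replicate per kilobase of merged exons. That length does not take account of which transcripts are used, and the order with Igfbp4 in M27H4 depends on it, as given below. It stood at 400 and 380 CPM in M6 controls, at 60.3, 55.2 and 40.7 CPM in M27H4 controls and at 207 and 292 CPM in 3T3-L1 controls, with no overlap between lines. Igfbp7 was 7.5-fold lower in M27H4 than in M6 (−2.91 ± 0.21 on the log2 scale, edgeR adjusted p = 3.13e-07) and 4.8-fold higher in 3T3-L1 than in M27H4 (edgeR adjusted p = 1.96e-06). The difference of −0.64 ± 0.22 between 3T3-L1 and M6 was called (edgeR adjusted p = 0.0352) and was lost without either M6 control or without 3T3-L1 control replicate 1 (adjusted p = 0.105, 0.074 and 0.218). Igfbp7 overlaps Polr2b by 85 bases on the other strand, so counts in that stretch could be split between them.

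Igfbp4 (chr11:99041244-99054392, plus strand), whose product is a substrate of pappalysin, was low in M6 at 1.51 and 2.49 CPM in controls. It stood at 76.8, 57.2 and 61.0 CPM in M27H4 controls and at 104 and 174 CPM in 3T3-L1 controls, and no ranges overlapped. Relative to M6, Igfbp4 was 32-fold higher in M27H4 (5.00 ± 0.42 on the log2 scale, edgeR adjusted p = 1.17e-06) and 68.3-fold higher in 3T3-L1 (6.09 ± 0.45, edgeR adjusted p = 2.62e-07). The 2.14-fold difference between 3T3-L1 and M27H4 was called (edgeR adjusted p = 0.0164), but not without M27H4 control replicate 2 (edgeR adjusted p = 0.0528). It was also not called without 3T3-L1 control replicate 2 (0.70 on the log2 scale) or in the single-line codes (0.86).

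Igfbp5 (chr1:72857932-72874884, minus strand) was an M6 RNA. It stood at 34.2 and 22.9 CPM in M6 controls and at 24.8 and 15.8 CPM in the M6 knockdown. Every replicate of the other lines lay at or below 0.260 CPM, and the first M27H4 replicate of each group had 0 counts. On the fitted scale Igfbp5 was lower than in M6 by 7.86 ± 0.96 in M27H4 (edgeR adjusted p = 8.21e-05) and by 8.24 ± 1.17 in 3T3-L1 (edgeR adjusted p = 0.000193). From the columns of the single-line codes alone, M6 control was at least 544-fold higher than M27H4 control, with a floor of 3 counts in the M27H4 column. Over all columns the fitted fold was 233. The fitted difference from M27H4 was −9.80 without M27H4 control replicate 2, and that from 3T3-L1 was −9.0 without 3T3-L1 control replicate 1.

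Igfbp2 (chr1:72824503-72852474, plus strand) lies 5457 bases from Igfbp5 and is read towards it. It was nearly silent, with 39 counts over all 14 replicates, 0 counts in 8 of them and at most 0.130 CPM. In replicates with 0 counts, a floor of 3 counts allows levels of up to 0.0860 CPM at the lowest depth and less in deeper ones. It covers counting error only.

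Igfbp6 (chr15:102144362-102149511, plus strand), whose product prefers IGF2 over IGF1, was a 3T3-L1 RNA. It stood at 12.9 and 16.8 CPM in 3T3-L1 controls, at 0.423, 0.907 and 0.677 CPM in M27H4 controls and at 0.228 and 0.152 CPM in M6 controls. 3T3-L1 was 21.8-fold higher than M27H4 (4.45 ± 0.36 on the log2 scale, edgeR adjusted p = 8.78e-07) and 82.3-fold higher than M6 (6.36 ± 0.49, edgeR adjusted p = 3.54e-07). The smaller difference between M27H4 and M6 was also called (1.92 ± 0.41, edgeR adjusted p = 0.00273) and lost without M6 control replicate 2 (1.59, adjusted p = 0.0518) and in the single-line codes (1.33, adjusted p = 0.123).

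Igfbp3 (chr11:7206086-7213923, minus strand), the main carrier of IGFs in serum, was the tested member with no called line difference. It stood at 43.9 and 35.2 CPM in M6 controls, at 23.0, 6.34 and 6.37 CPM in M27H4 controls and at 26.9 and 23.1 CPM in 3T3-L1 controls. The first M27H4 replicate of each group stood apart, 3.62 times the lowest control and 3.53 times the lowest overexpression replicate. The difference between M27H4 and M6 was −1.74 ± 0.62 (edgeR adjusted p = 0.0582), and without M27H4 control replicate 1 it was −2.64 (adjusted p = 0.00185). Likewise the difference of 1.08 ± 0.62 between 3T3-L1 and M27H4 (edgeR adjusted p = 0.207) became 1.98 without that replicate (adjusted p = 0.00846). Between 3T3-L1 and M6 it was −0.66 ± 0.69 (edgeR adjusted p = 0.489).

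The 6 binding protein genes were also summed per kilobase of exon, so that genes of different length could be set side by side. The sum was 281 to 351 CPM per kilobase in M6, 50.1 to 75 in M27H4 and 215 to 304 in 3T3-L1. Igfbp7 held 88.9 to 95.2% of it in M6, 65.1 to 79.5% in M27H4 and 79.6 to 82.1% in 3T3-L1. Igfbp4 held 16.8 to 27.6% in M27H4, 9.64 to 13.0% in 3T3-L1 and 0.0974 to 0.213% in M6. Igfbp6 took 4.92 to 5.40% in 3T3-L1, at most 1.33% in M27H4 and at most 0.101% in M6, while Igfbp5 took 0.903 to 1.62% in M6. By this scaling M27H4 had the least binding protein RNA and the largest Igfbp4 share. The merged exons of Igfbp4 span 4416 bases. The transcript Igfbp4-204, described below, has 742 bases and held 49.8 to 72.2% of Igfbp4 transcript counts in M27H4. Scaling by transcript length would therefore raise Igfbp4 in M27H4. In M27H4 control replicate 3, Igfbp4-204 had 5215 counts over 742 bases. Igfbp7 had 4985 counts there, over transcripts of 1116 and 1200 bases, so Igfbp4 exceeded Igfbp7 per base of transcript. In M27H4 overexpression replicate 2, Igfbp4-204 had 8272 counts against 15901 for Igfbp7. The order in the other M27H4 replicates was not examined in that way. The shares and counts are descriptions with no test.

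**Figure D3:**
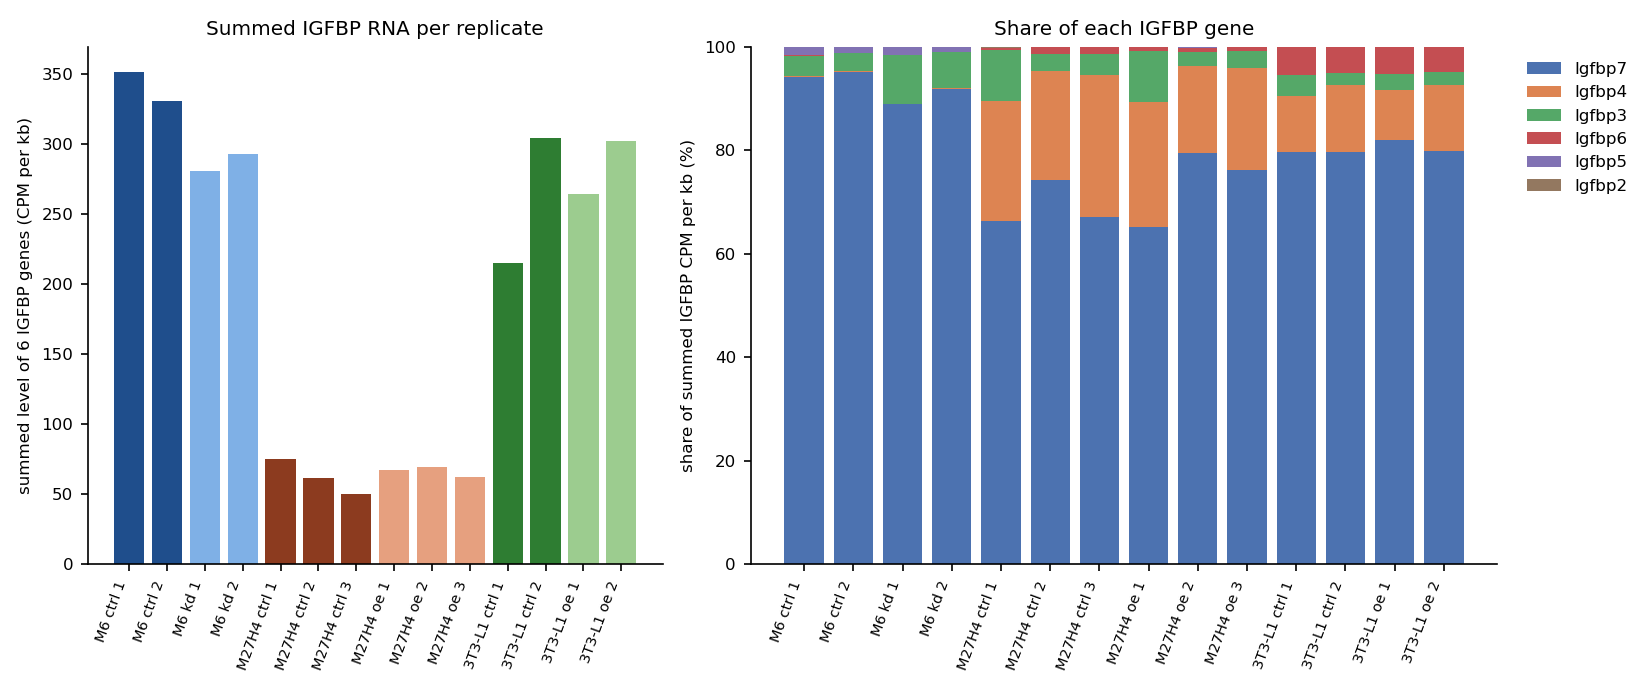
Summed level of 6 IGFBP genes in CPM per kilobase of exon (left) and the share of each gene in that sum in percent (right), for each replicate of the control (ctrl), knockdown (kd) and overexpression (oe) groups. Scaled by merged exon length, the M27H4 bars lie between 50.1 and 75, below all others, and Igfbp7 holds the largest share in all 14 replicates.

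Transcript counts gave 1 further difference within Igfbp4. Igfbp4-204 (742 bases) is an annotated coding transcript with a first exon of its own at chr11:99047311-99047403. It lacks the first exon of Igfbp4-201 (3831 bases), which carries 349 coding bases, and shares the later 3 coding exons with it. Igfbp4-204 held 49.8, 57.0 and 69.8% of Igfbp4 transcript counts in M27H4 controls and 60.3, 67.3 and 72.2% after overexpression. In M6 it held 0 to 6.94% and in 3T3-L1 5.07 to 12.8%, so the M27H4 range stood clear of both. Igfbp4-201 held 16.3 to 42.8% in M27H4, 72.6 to 100% in M6 and 68.7 to 80.5% in 3T3-L1. The gene had 62 to 767 counts in each M6 replicate, and at least 2568 in each of the others. These counts are StringTie's division of reads between transcripts that share exons, with no error estimate, and were not tested.

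**Figure D4:**
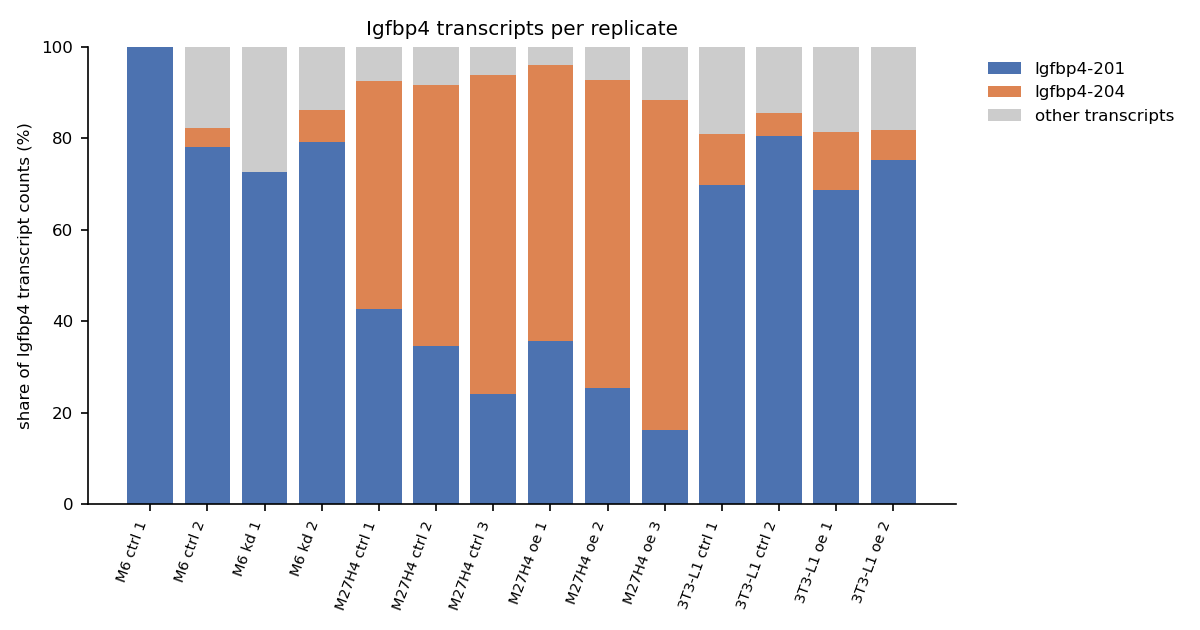
Share of Igfbp4 transcript counts in percent held by Igfbp4-201, Igfbp4-204 and the remaining transcripts in each replicate. In the 6 M27H4 replicates Igfbp4-204 holds 49.8 to 72.2%, against at most 12.8% elsewhere.

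In the other members 1 transcript held most counts wherever the gene had at least 50. It held least in Igf1, where Igf1-202 held 71.0 to 94% in M27H4 and 68.6 to 84.5% in 3T3-L1, with up to 22.5% in Igf1-203. Igf1r-201 held 97.1 to 98.9% of Igf1r counts, Insr-201 94.9 to 98.8% of Insr counts and Igfbp3-201 97.1 to 99.8% of Igfbp3 counts. In Igfbp7 the main transcript Igfbp7-201 held 90.7 to 92.6% in M6 and 77.3 to 95.4% in M27H4. All counts of Irs1 and Igfbp6 were given to 1 transcript.

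In the fit that takes replicates as unpaired, 0 of the 9 tested members were called after knockdown of Esrp2-as in M6, against 0.137% of all genes tested, and 0 had an unadjusted p under 0.05 (edgeR). Igfbp3 had the largest difference, at 43.9 and 35.2 CPM in controls and 82.6 and 63.0 CPM in the knockdown. Both knockdown replicates lay above both controls, and the difference was 0.88 ± 0.69 on the log2 scale (95% interval −0.65 to 2.41, unadjusted p = 0.231, edgeR adjusted p = 1.0). Knockdown over control was 1.88 between the samples numbered 1 and 1.79 between those numbered 2. Whether Igfbp3 was called depended on taking the replicates as unpaired, as given in the closing section. Cd14, a member of the immune marker list, moved alongside, at 132 and 133 CPM against 232 and 218 CPM, and so did Ptprc at a far lower level, at 0.166 and 0.396 CPM against 0.612 and 0.890 CPM. Itgam and Lyz2 were at or below 0.0168 CPM in M6. The immune list (8 genes) summed to 133 to 135 CPM in controls and 221 to 235 CPM in the knockdown. The part of other cells in the Igfbp3 difference was not tested.

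Groups did not overlap for 2 of the 9 members, Igfbp3 and Igfbp7, against 26.4% of all genes tested. Igfbp7 lay lower in both knockdown replicates (302 and 325 CPM) than in both controls (400 and 380 CPM), by −0.32 ± 0.22 on the log2 scale (95% interval −0.80 to 0.16, edgeR adjusted p = 1.0). Insr had the smallest p, with 126 and 63.5 CPM in controls and 81.8 and 62.2 CPM in the knockdown (−0.40 ± 0.27, unadjusted p = 0.163, edgeR adjusted p = 0.991). For Irs1 the difference was −0.33 ± 0.24 and for Igfbp5 −0.49 ± 0.83. Igf1r, Igfbp4 and Igfbp6 differed by 0.09 ± 0.25, 0.02 ± 0.37 and 0.27 ± 0.46. The 95% interval of Igf1r, −0.46 to 0.64, was the narrowest among these 3.

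Overexpression in M27H4 also left 0 of 9 tested members called, against 0.00942% of all genes tested, with 0 at an unadjusted p under 0.05 (edgeR). Igf1r was the member whose groups did not overlap, against 5.1% of all genes tested, at 101, 96 and 84.6 CPM in controls and 76.4, 74.7 and 81.2 CPM after overexpression. All 3 overexpression replicates were lower, by −0.28 ± 0.21 on the log2 scale (95% interval −0.72 to 0.17, unadjusted p = 0.207, edgeR adjusted p = 1.0). Insr pointed the same way with overlapping groups, at 105, 89.8 and 84.1 CPM against 75, 72.9 and 86.8 CPM (−0.25 ± 0.22). Irs1 differed by −0.20 ± 0.20, Igfbp7 by 0.18 ± 0.18 and Igfbp4 by −0.14 ± 0.29. The intervals of Igf1, Igfbp3 and Igfbp5 were wider, and that of Igfbp3 ran from −1.39 to 1.12.

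In 3T3-L1, 0 of 9 tested members were called, against 0.00471% of all genes tested, 0 had an unadjusted p under 0.05 (edgeR), and no member's groups were separate, against 23.2% of all genes tested. Igf1r stood at 56.9 and 41.0 CPM in controls and at 62.5 and 52.0 CPM after overexpression (0.23 ± 0.25 on the log2 scale, unadjusted p = 0.39, edgeR adjusted p = 1.0). Igf1 stood at 14.4 and 17.6 CPM against 14.1 and 24.7 CPM (0.27 ± 0.78), and Igfbp5, at trace level, differed by 0.71 ± 1.01. The other 6 differed by −0.05 to 0.15. A p that misses the threshold does not show that the treatment left these genes alone: the intervals for Igf1r allow up to 0.77, and those for Igf1 up to 1.99.

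**Figure D5:**
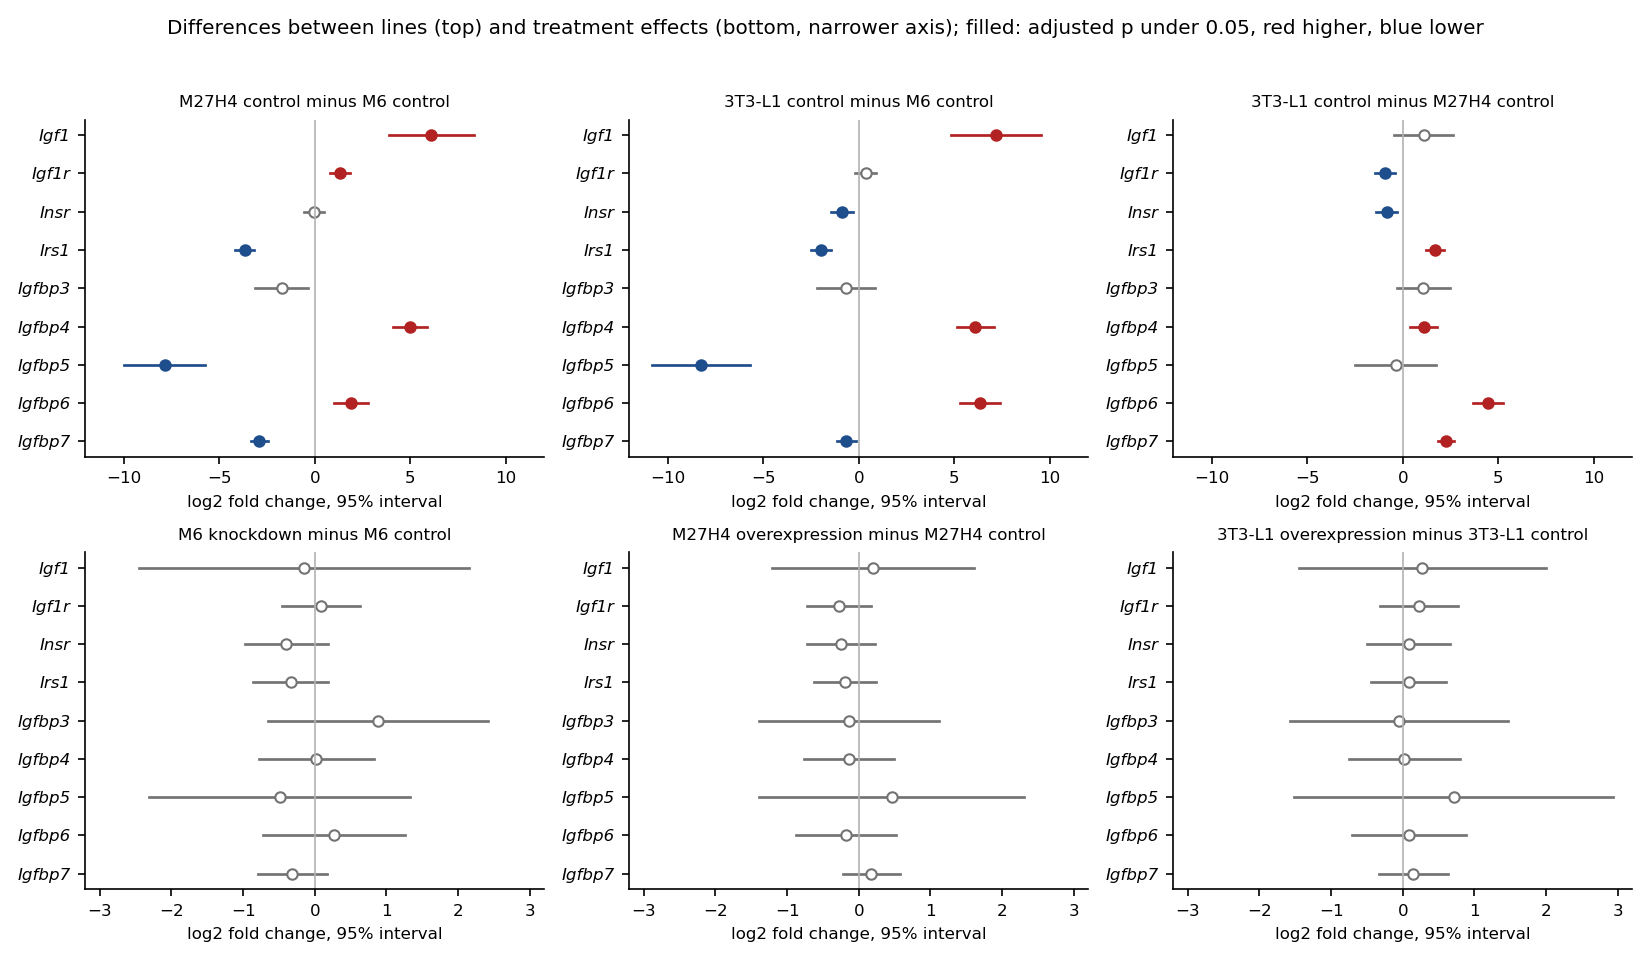
Fitted log2 fold changes with 95% intervals for the 9 tested members, between control groups of the lines (top, axis from −12 to 12) and between treated and control groups within each line (bottom, axis from −3.2 to 3.2). Filled points passed an adjusted p of 0.05. Every called difference lies in the top row, and all intervals of the bottom row span 0.

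The treatment effects were also compared between lines. The overexpression effect in 3T3-L1 minus that in M27H4 was called for 0 of 9 tested members (0.00471% of all genes tested), and the difference between the M6 knockdown and M27H4 effects for 0 of 9 (0.0283%), both in edgeR and both with 0 members at an unadjusted p under 0.05. The largest of these differences was that of Igfbp3 between the M6 and M27H4 effects, at 1.01 ± 0.89 (edgeR adjusted p = 1.0). Igf1r had the smallest p between the overexpression effects, with −0.28 in M27H4 and 0.23 in 3T3-L1 (difference 0.50 ± 0.33, unadjusted p = 0.15, edgeR adjusted p = 1.0).

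Other ligands, receptors, adaptors and binding proteins of the IGF system, with the RNA-binding protein genes Igf2bp1, Igf2bp2 and Igf2bp3, formed a list of 14 genes. Of these, 6 were tested, namely Igf2, Igf2r, Irs2 and the Igf2bp genes. Between M27H4 and M6, 1 was higher and 2 were lower, between 3T3-L1 and M6 4 were higher, and between 3T3-L1 and M27H4 5 were higher, against 30.2%, 39.4% and 36.6% of all genes tested called in either direction. Igf2, the second IGF ligand, was higher than in M6 by 6.08 in M27H4 (edgeR adjusted p = 5.02e-05) and by 5.97 in 3T3-L1 (edgeR adjusted p = 5.16e-05), on the fitted log2 scale. It stood at 0 and 0.0714 CPM in M6 controls, 5.18, 1.60 and 4.0 CPM in M27H4 controls and 2.95 and 3.71 CPM in 3T3-L1 controls. Without M6 control replicate 2 the remaining M6 control was at 0, and the fitted differences were 11.9 and 11.8. Igf2bp1, which binds IGF2 messenger RNA, was higher in 3T3-L1 than in M6 by 3.92 and than in M27H4 by 3.25 (edgeR adjusted p = 2.57e-05 and 3.09e-05). Irs2 was lower in M27H4 than in M6 by −3.25 and higher in 3T3-L1 than in M27H4 by 3.87 (edgeR adjusted p = 0.000431 and 0.000115). Igf2r, the scavenger receptor that clears IGF2, stood at 201 and 83.6 CPM in M6 controls, 84.6 to 99.7 CPM in M27H4 controls and 483 and 423 CPM in 3T3-L1 controls. It was higher in 3T3-L1 than in M6 by 1.67 and than in M27H4 by 2.29 (edgeR adjusted p = 0.00347 and 0.000147). Of the other RNA-binding proteins, Igf2bp3 was higher in 3T3-L1 than in M6 by 8.30 and than in M27H4 by 6.79 (edgeR adjusted p = 0.00271 and 0.00217), and Igf2bp2 was lower in M27H4 than in M6 by −0.69 (edgeR adjusted p = 0.0432).

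Genes for proteases that cut binding proteins, and for their inhibitors, formed a list of 10, of which 8 were tested. Between M27H4 and M6, 6 were higher and 1 was lower, between 3T3-L1 and M6 3 were higher and 3 lower, and between 3T3-L1 and M27H4 4 were lower, against the same 30.2%, 39.4% and 36.6% of all genes tested. Htra1, a secreted serine protease, stood at 58.2 and 129 CPM in M6 controls, at 1048, 1529 and 1464 CPM in M27H4 controls and at 11.3 and 12.4 CPM in 3T3-L1 controls. It was higher in M27H4 than in M6 by 3.84 and lower in 3T3-L1 than in M27H4 by −6.83 (edgeR adjusted p = 3.96e-06 and 1.02e-07). Adam12, a metalloprotease, was lower than in M6 by −4.82 in M27H4 and −4.80 in 3T3-L1 (edgeR adjusted p = 4.32e-07 and 1.26e-06). Stc1, a pappalysin inhibitor, was higher than in M6 by 6.79 and 5.66 (edgeR adjusted p = 0.000507 and 0.00125). Pappa2, a pappalysin, was higher in 3T3-L1 than in M6 by 4.42 (edgeR adjusted p = 0.000617). Stc2, a relative of Stc1, and Ctsd, a lysosomal protease gene, were lower in 3T3-L1 than in M27H4 by −2.33 and −1.01 (edgeR adjusted p = 0.0423 and 0.0101).

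All 31 genes of the list of insulin and IGF signal transduction were tested. Between M27H4 and M6, 8 were higher and 3 lower, between 3T3-L1 and M6 3 were higher and 10 lower, and between 3T3-L1 and M27H4 2 were higher and 9 lower. Taken in either direction, these counts lie near the 30.2%, 39.4% and 36.6% called among all genes tested. By direction, the shares over all genes tested were 15.2% higher and 15.0% lower, 20.5% and 18.9%, and 18.9% and 17.8%. In both comparisons of 3T3-L1 the list leaned to lower, and this was not tested. The median log2 fold change was 0.0854, −0.314 and −0.275 in these 3 comparisons, against 0.021, 0.0483 and 0.0185 over all genes tested. Grb14, an adaptor that inhibits the insulin receptor, stood at 0 and 0.435 CPM in M6 controls, 122, 83.9 and 97.6 CPM in M27H4 controls and 16.9 and 19.3 CPM in 3T3-L1 controls. It was higher than in M6 by 8.47 in M27H4 and by 5.99 in 3T3-L1 (edgeR adjusted p = 4.37e-06 and 2.6e-05), and by 16.7 and 14.2 without M6 control replicate 2, which leaves an M6 control at 0. Gab1, a docking protein, was lower than in M6 by −1.55 and −2.29 (edgeR adjusted p = 0.00153 and 0.000181). Grb14 was lower in 3T3-L1 than in M27H4 by −2.48 (edgeR adjusted p = 0.00326). Eif4ebp1, a translation repressor that mTOR phosphorylates, was higher in 3T3-L1 than in M6 by 2.18 (edgeR adjusted p = 2.91e-05). In 3T3-L1, Foxo1, a transcription factor that AKT keeps out of the nucleus, and Pik3cb, a catalytic subunit of phosphatidylinositol 3-kinase, were lower than in M27H4 by −2.12 and −2.0 (edgeR adjusted p = 0.000347 and 0.000147).

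In the treatment comparisons 0 genes of these 3 lists were called by edgeR, with 3 of 45 at an unadjusted p under 0.05 in M6, 0 in M27H4 and 1 in 3T3-L1. Of the 21237 genes tested, 1331 had such a p in M6, 358 in M27H4 and 201 in 3T3-L1, so the list counts are near the background and the genes are given as values only. Those in M6 were Pik3r1, a regulatory subunit of phosphatidylinositol 3-kinase (−0.72, unadjusted p = 0.028, edgeR adjusted p = 0.686), Stc1 (2.42, unadjusted p = 0.037, edgeR adjusted p = 0.731) and Gab1 (−0.78, unadjusted p = 0.0397, edgeR adjusted p = 0.742). The next in M6 were Igf2 at −1.59, Htra1 at 0.50 and Irs2 at −0.53. In 3T3-L1 it was Ctsd (0.71, unadjusted p = 0.0288, edgeR adjusted p = 1.0), and the next were Ptpn11 at 0.53, Rptor at 0.32, Igf2bp2 at 0.32, Adam9 at 0.18 and Igf2r at 0.16. In M27H4 the smallest p was that of Grb10, a receptor-binding adaptor at no more than 0.306 CPM in this line (2.93, unadjusted p = 0.0846, edgeR adjusted p = 1.0). Mtor at −0.31, Ctsd at −0.34, Igf2 at −0.69, Stc2 at −0.87 and Igf2bp2 at −0.18 followed.

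The genes most like each member in log2 level were sought among 11978 genes over the 14 replicates, which share lines, run codes and depth, so a high coefficient mostly records a shared order of the lines. Igf1 was most like Bdnf (Pearson r = 0.994), a neurotrophin gene that stood at 0.215, 19.4 and 55.4 CPM on average in M6, M27H4 and 3T3-L1 controls. Igfbp4 was most like Mxra8 (r = 0.998), at 0.951, 52.5 and 115 CPM, and Igfbp5 was most like Ctsc (r = 0.995), a lysosomal protease gene at 351, 1.75 and 1.68 CPM. Igfbp6 was most like Mmp28 (r = 0.994), Igfbp7 like Gpr153 (r = 0.987) and Irs1 like Ccdc141 (r = 0.993). Igf1r was most like Rbms1 (r = 0.977) and Insr like Ash1l (r = 0.968). The genes next in likeness were Rab39b for Igf1, Selenow for Igfbp4, Vtcn1 for Igfbp5, Impact for Igfbp6, Akap6 for Igfbp7, Tcp11l1 for Irs1, Jade2 for Igf1r and Lrch3 for Insr. Among the members themselves, Igf1 and Igfbp4 were the closest pair (r = 0.968), and Igfbp5 ran opposite to Igfbp4 (r = −0.924).

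Igfbp3 was most like Ccrl2 (r = 0.965) and Ptgs2 (r = 0.950), both genes of inflammatory responses. Ptgs2 averaged 164 CPM in M6 controls and 768 CPM in the knockdown, 41.4 and 37.8 CPM in M27H4 and 83.8 and 76.5 CPM in 3T3-L1. Ccrl2 averaged 4.07 CPM in M6 controls and 8.31 CPM in the knockdown. These coefficients over 14 replicates are descriptions with no test.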

How the data were processed

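Total RNA was depleted of ribosomal RNA and sequenced from strand-specific libraries of 14 replicates in 6 groups, per the labels' protocols. Cutadapt, HISAT2, StringTie and edgeR are named, without versions or settings, in the submitters' processing notes, with the builds mm10 and GRCm38. The deposited values used for testing are estimated counts per gene and per transcript that the authors made with StringTie, in 21 columns, rounded where needed to whole numbers. The deposited CPM tables of the authors hold normalized signal for 21940 genes and served as an alternative for levels; 1 value column in each, which no labelled sample matched, was not used. Technical replicates were summed, giving 34892461 to 328493417 counts per replicate. Columns of the second M6 replicate of each group carry differing library codes and were summed as technical replicates, as labelled.

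Genes were tested with edgeR 4.0.16 in R 4.3.3 (quasi-likelihood F test, TMM factors, filterByExpr, 6 groups in 1 fit with 8 residual degrees of freedom), with Benjamini-Hochberg adjustment over 21237 genes and calls at 0.05. SEs were derived from the F statistic. CPM values use the effective library size, and values per kilobase use merged GENCODE M21 exons. The test was checked on simulated counts. Gene identifiers were matched for 48058 of 48440 rows.

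The members and lists were chosen with earlier results of these data known. The lists are the members, other IGF ligands, receptors and binding proteins (with adaptors and the Igf2bp genes), binding protein proteases and their inhibitors, and insulin and IGF signal transduction. Marker lists cover epithelial, fibroblast, adipocyte, muscle, endothelial and immune genes. Named were all members, Igf2, Igf2r and Irs2, the 3 called genes of each pathway list with the largest change between lines at a mean of at least 1 CPM, the 2 with the smallest p in a treatment comparison that called none, and the 2 genes most like each member. A gene that this rule names is not reported here. Muscle markers summed to at most 6.81 CPM in any replicate, and endothelial markers to 0.338 to 0.558 CPM in M6, 21.8 to 32.7 CPM in M27H4 and 2.04 to 2.51 CPM in 3T3-L1. In M27H4 most of the endothelial sum was Kdr (21.2 to 32.1 CPM), and Vwf, the next, reached at most 0.627 CPM. Alternatives were DESeq2 1.42.0, limma voom (limma 3.58.1), other scalings, no filter, single lines, single technical replicates, a replicate block, run codes and leaving out each replicate.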

Additional observations from a re-analysis of the deposited data

How the results depend on the processing

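The 20 called line differences among the members kept their direction in all alternatives run, and 14 of them kept their call in each. Leaving out each replicate in turn gave 6 to 8 members called between M27H4 and M6, 5 to 6 between 3T3-L1 and M6 and 3 to 6 between 3T3-L1 and M27H4, with the 3 found without 3T3-L1 control replicate 2. It gave 0 in each treatment comparison. Over the other alternatives the counts were 6 to 8, 5 to 7 and 4 to 7. Igfbp3 between M27H4 and M6 was also called by limma voom (−2.11, adjusted p = 0.00463) and DESeq2 (−1.76, adjusted p = 0.0102). Taking M27H4 replicates 2 and 3 only was chosen after seeing the data, as were the single-line codes, and gave −2.70 (edgeR adjusted p = 4.52e-06). Grb14 in the M6 knockdown turned from −0.14 to 8.12 without M6 control replicate 2 (range −0.70 to 8.12), which leaves a control at 0 counts.

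Same-numbered samples deviated together with r = 0.744 in M6, 0.429, 0.0991 and 0.240 in M27H4 and 0.498 in 3T3-L1, and M27H4 samples of unlike number reached 0.138 and 0.214. The numbers were not taken as pairing, because nothing in the labels ties them to a shared culture or day. Also, 1 of the 3 M27H4 pairs fell under the limit of 0.1 set for each. Same-numbered control and treated samples did share run codes, fully in M27H4, 3T3-L1 and the first M6 replicate, and in part in the second. With the replicate number as a block within each line (4 residual degrees of freedom), 1 member was called in the M6 knockdown, Igfbp3 (0.88, edgeR adjusted p = 0.0107), and 1 in the difference between the M6 and M27H4 effects, again Igfbp3 (0.97, edgeR adjusted p = 0.0402). The cause was not tested. Over all genes, 29 were called in the M6 knockdown, 6 to 60 when a replicate was left out and 0 to 293 under the other alternatives. The same counts were 2, 1 to 2 and 0 to 4 in M27H4, and 1, 0 to 5 and 0 to 13 in 3T3-L1. Between lines they were 6420, 5256 to 6017 and 3915 to 7064 for M27H4 and M6, 8368, 6108 to 7728 and 7897 to 9045 for 3T3-L1 and M6, and 7777, 5271 to 7082 and 5135 to 8755 for 3T3-L1 and M27H4.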
